A study of Mus musculus with 220 samples.

Results

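The genes of cholesterol biosynthesis and of its control by sterol regulatory element-binding protein 2 (SREBP2, encoded by Srebf2) were examined in the livers of the Ath-HMDP, an atherosclerosis-prone version of the Hybrid Mouse Diversity Panel. The list held 29 genes, from the first steps of the mevalonate pathway to cholesterol itself, together with the regulators of SREBP2 and a few genes of sterol transport. A gene was kept when the array carried a probe set annotated to its symbol alone, and where there were several, the brightest on average stood for it. This left 26 of the 29 genes, out of 17097 genes measured in the same way. Pmvk, Acat2 and Soat2 had no probe set of their own and were not analysed here.

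Liver RNA was profiled in 220 female F1 mice, 1 array per mouse, with values on a log2 scale, so that a difference of 1 is a 2-fold change in signal. Every mouse carried the human transgenes APOE-Leiden and CETP from a C57BL/6J father, and the mothers came from 96 inbred or recombinant inbred strains. Chow was given up to the age of 8 weeks and then a Western diet over 16 weeks, and livers were taken at 24 weeks. The groups were the maternal strains, which fell by name into 29 classical inbred strains with 65 mice and 4 recombinant inbred panels, namely BXD (34 strains, 83 mice), AXB/BXA (21 and 47), CXB (8 and 17) and BXH (4 and 8). Each mouse thus held 1 C57BL/6J genome and 1 genome of the named strain, and the 2 mice with C57BL/6J mothers were the only mice with C57BL/6J genomes from both parents. Per the methods of the study, where the transgenes sit and in how many copies was not known, and the labels name no litter, cage or day of collection, so p-values measure the spread between these mice, of whatever source. Strains had 1 (9 strains), 2 (51), 3 (35) or 4 (1) mice, and this number limits the precision of every strain mean.

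Cholesterol is made from acetyl-CoA through mevalonate, isoprenoid diphosphates, squalene and lanosterol. SREBP2 is held in the endoplasmic reticulum by its escort protein SCAP and the anchors INSIG1 and INSIG2 while sterols are plentiful. When sterols fall, SCAP carries it to the Golgi, where proteases release a fragment that enters the nucleus and turns on most genes of the pathway. A diet rich in cholesterol is known to lower the activity of this system in liver, and bile acids and lipoprotein secretion remove the product.

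Promoter windows were available for 21 of the 26 genes from RefSeq (GRCm38.p6), each running from 250 bases before to 50 bases after an annotated start. Fdps, Fdft1, Sqle, Stard4 and Npc1 had none. Because SREBP2 is known to act together with the factor NF-Y, which binds the CCAAT box, the windows were searched on both strands for CCAAT and for a sterol regulatory element, written here as TCACNCCAC. The windows below are shown because they carry these letters in different numbers and belong to genes that behaved differently across strains. Capitals mark each CCAAT, read on either strand, and each match to the sterol regulatory element.
Hmgcs1 (chr13:119690101-119690400, plus strand): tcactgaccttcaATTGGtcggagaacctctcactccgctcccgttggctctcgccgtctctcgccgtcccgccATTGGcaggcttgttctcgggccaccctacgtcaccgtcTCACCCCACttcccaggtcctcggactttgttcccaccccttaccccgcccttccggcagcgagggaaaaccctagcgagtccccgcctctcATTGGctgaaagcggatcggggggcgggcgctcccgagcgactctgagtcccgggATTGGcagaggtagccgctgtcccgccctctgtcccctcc
Idi1 (chr13:8885356-8885655, plus strand): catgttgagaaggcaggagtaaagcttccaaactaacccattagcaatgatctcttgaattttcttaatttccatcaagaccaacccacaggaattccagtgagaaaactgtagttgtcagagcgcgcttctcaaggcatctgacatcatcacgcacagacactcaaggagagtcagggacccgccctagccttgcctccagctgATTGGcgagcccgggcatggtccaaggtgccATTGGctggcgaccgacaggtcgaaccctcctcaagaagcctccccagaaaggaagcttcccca
Nsdhl (chrX:72918271-72918570, plus strand): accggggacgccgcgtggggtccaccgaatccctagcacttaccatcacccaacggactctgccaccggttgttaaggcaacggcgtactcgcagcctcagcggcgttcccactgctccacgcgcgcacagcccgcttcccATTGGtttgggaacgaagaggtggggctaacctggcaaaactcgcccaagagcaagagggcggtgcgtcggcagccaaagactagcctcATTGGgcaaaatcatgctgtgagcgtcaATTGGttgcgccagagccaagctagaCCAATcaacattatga
Insig1 (chr5:28071162-28071461, plus strand): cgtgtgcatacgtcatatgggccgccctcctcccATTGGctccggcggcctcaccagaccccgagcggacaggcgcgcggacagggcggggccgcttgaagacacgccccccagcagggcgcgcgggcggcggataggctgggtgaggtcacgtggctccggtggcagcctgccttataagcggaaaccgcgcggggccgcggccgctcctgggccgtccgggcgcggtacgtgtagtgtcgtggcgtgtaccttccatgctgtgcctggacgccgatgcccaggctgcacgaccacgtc
Ggps1 (chr13:14063439-14063738, minus strand): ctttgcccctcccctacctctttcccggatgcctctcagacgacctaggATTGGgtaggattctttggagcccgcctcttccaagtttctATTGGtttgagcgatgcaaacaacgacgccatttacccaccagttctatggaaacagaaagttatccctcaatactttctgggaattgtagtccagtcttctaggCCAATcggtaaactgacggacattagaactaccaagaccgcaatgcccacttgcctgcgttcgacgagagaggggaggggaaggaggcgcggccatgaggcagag
Aacs (chr5:125475623-125475922, plus strand): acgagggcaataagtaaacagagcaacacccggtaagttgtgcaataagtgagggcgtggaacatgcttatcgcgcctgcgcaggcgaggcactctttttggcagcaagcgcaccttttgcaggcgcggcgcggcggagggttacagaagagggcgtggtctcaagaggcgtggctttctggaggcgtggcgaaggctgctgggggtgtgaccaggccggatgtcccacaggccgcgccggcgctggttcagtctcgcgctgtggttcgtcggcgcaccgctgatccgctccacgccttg

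CCAAT stood in at least 1 window of 19 of the 21 genes, all but Scap and Aacs, whereas 37.41% of the 32851 windows in the table and 41.06% of its 27025 genes held it. The sterol regulatory element in this spelling was found in Hmgcs1 only, at position -137 from the start, and in 1.24% of all windows (1.44% of genes). Hmgcs1 and Nsdhl held 4 CCAAT matches each, Ggps1 held 3, Idi1 held 2 and Insig1 held 1. The GC box, GGGCGG, was present in 19 of the 21 genes (38.2% of all genes, 35.66% of all windows), and the E-box, CACGTG, in 5 of the 21 genes (8.09% of all genes, 7.15% of all windows), again on both strands. A match is a run of letters and not a measured binding site.

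The 7 hepatocyte markers examined had mean values from 10.66 (Tat) to 13.52 (Alb), far above the median probe set mean of 3.46, so the labelled tissue was borne out by its markers. Array medians lay between 3.43 and 3.56. Averaged over all mice, markers of muscle (2.96 to 3.38) and of adipocytes (2.49 to 2.85) lay below 3.46. Single mice reached 8.8 for the muscle marker Acta1 and 7.59 for Mylpf. BXD14/TyJ had the highest strain mean of both (5.09 ± 3.22 and 4.87 ± 2.36, SD, n = 3). Of the pancreatic acinar markers, Cpa1 (2.91) and Prss1 (2.96) lay below 3.46 and Cela1 (6.59) above it. Of the 26 genes, 13 had 1 probe set and 13 had 2 or more. Hmgcs1, whose product makes HMG-CoA at the entry of the pathway, was represented by 1 dim probe set with a mean of 3.58, close to the median probe set, so its differences were read near background.

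All 26 genes differed between the maternal strains (limma F-test on the 87 strains with 2 or more mice, 211 mice, Benjamini-Hochberg adjusted p from 1.08e-18 for Scap to 0.00417 for Hmgcs1). The background was high, since 47.9% of all probe sets, and 59.2% of the 17097 genes by their chosen probe set, passed the same test. The share of the variance that lay between strains had a median of 0.478 over the 26 genes, against 0.251 over all 17097 genes and 0.423 over the 10474 genes brighter than the median probe set. The count was 23, 21 and 25 of the 26 genes when the mice numbered 1, 2 or 3 in each strain were left out, which also removes strains of 2 mice.

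**Figure D1:**
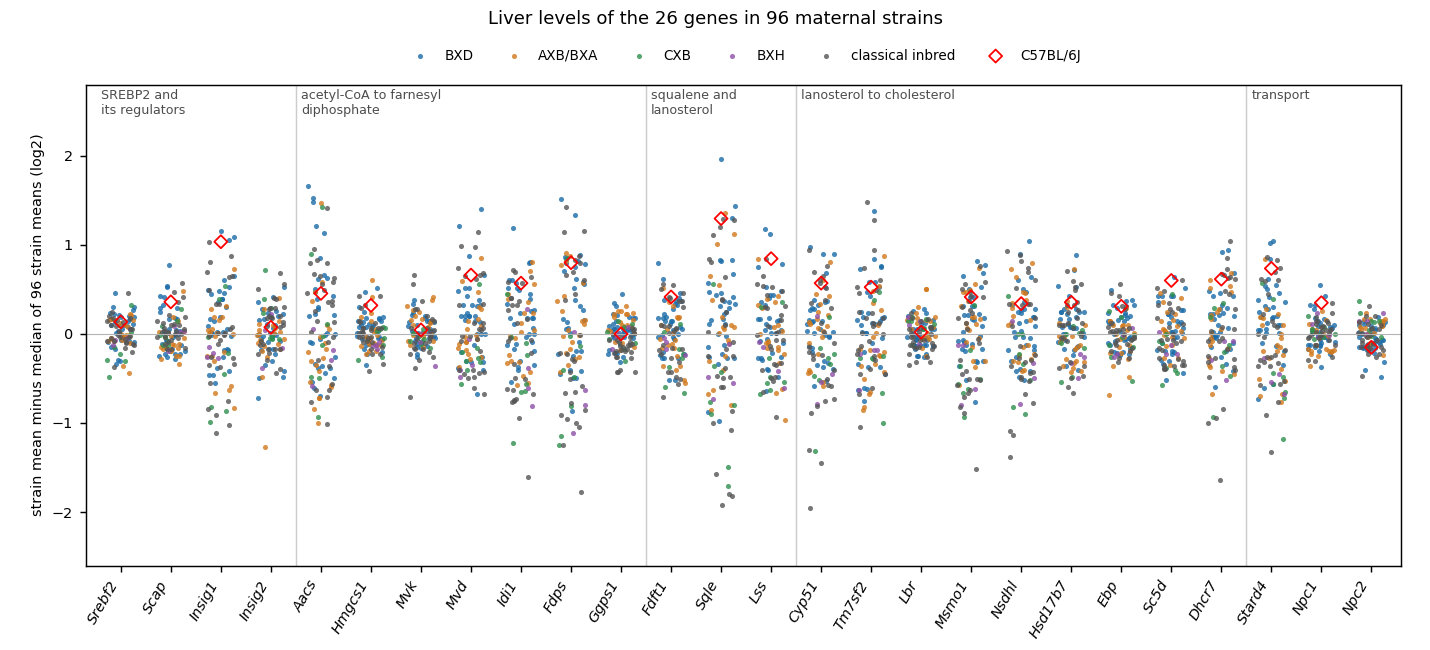
Strain means of the 26 genes, each drawn as the difference from the median of the 96 strain means of that gene (log2, vertical axis), with genes on the horizontal axis in order of their role. Points are strains coloured by panel and the red diamond is C57BL/6J. Sqle spread over 3.89 and Ggps1 over 0.88, and C57BL/6J lay above the median for Sqle and below it for Npc2.

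Among the regulators, Scap had the largest share of variance between strains of all 26 genes (0.678), with strain means from 8.47 ± 0.03 in AXB15/PgnJ (SD, n = 3) to 9.58 ± 0.23 in BXD55/RwwJ (SD, n = 3). The AXB15/PgnJ mice read 8.43, 8.49 and 8.48 and the BXD55/RwwJ mice 9.54, 9.37 and 9.83. The 2 strains did not overlap, having been picked as the lowest and highest of the 96 strain means. Insig1, itself a target of SREBP2, ranged more widely, from 7.34 ± 0.02 in C58/J to 9.61 ± 0.07 in BXD75/RwwJ (SD, n = 2 each), with a share of 0.50. Srebf2 moved little, from 5.12 in the single CXB11/HiAJ mouse to 6.06 ± 0.14 in I/LnJ (SD, n = 2), with a share of 0.302. A second, dimmer Srebf2 probe set (mean 4.97) missed the threshold (share 0.149, adjusted p = 0.0535).

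Insig2, the isoform that is known in liver for a transcript that insulin lowers, varied apart from Insig1. Its share between strains was 0.597. The 2 BXA11/PgnJ mice read 9.77 and 9.69, the lowest values of all 220 mice being 9.69, while Insig1 in the same mice was 8.47 and 8.43, close to its median strain mean of 8.46. The highest Insig2 mean was 11.71 ± 0.10 in CXB8/HiAJ (SD, n = 3). BXA11/PgnJ also had the lowest strain mean of the clock genes Arntl (3.42) and Clock (6.65), and CXB8/HiAJ the highest of Clock (7.71). The part of circadian phase in the Insig2 differences was not tested. The other Insig2 probe sets followed the chosen one over the 96 strain means, with r of 0.93 and 0.90.

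In the mevalonate part of the pathway, Idi1 and Fdps, which make and condense the 5-carbon isoprenoid units, had the widest ranges, followed by Aacs. C58/J was lowest for both and BXD55/RwwJ highest. The Idi1 values were 6.17 and 6.39 in C58/J and 8.82, 9.06 and 9.38 in BXD55/RwwJ. For Fdps they were 6.76 and 6.94 in C58/J against 9.78, 10.26 and 10.37 in BXD55/RwwJ. The 2 strains stood more than 2 log2 units apart for each gene. Mvd, the decarboxylase of this stage, reached 5.34 ± 0.47 in BXD55/RwwJ (SD, n = 3) from a lowest mean of 3.27 ± 0.41 in BXD50/RwwJ (SD, n = 2). Mvk, mevalonate kinase, spanned 1.37 (share 0.328), and its second probe set was not called (adjusted p = 0.0594).

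Aacs, which activates acetoacetate for lipid synthesis, spanned 2.68, from 4.16 in the single C57L/J mouse to 6.84 ± 0.38 in BXD71/RwwJ (SD, n = 3). A dimmer Aacs probe set (mean 3.60) was not called (share 0, adjusted p = 0.873), so the result rests on 1 probe set. Ggps1 leads away from sterols to geranylgeranyl diphosphate, and it stayed within 0.88 over the strains, from 4.61 ± 0.02 in KK/HlJ (SD, n = 2) to 5.49 in the single BXD34/TyJ mouse. Hmgcs1 spanned 1.03 with the smallest share of the 26 genes, 0.231.

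At the commitment to sterols, Sqle, the squalene epoxidase, had the widest range of strain means of all 26 genes. The 2 SM/J mice read 3.72 and 3.77, the C58/J mice 3.71 and 3.97, and the BXD55/RwwJ mice 7.4, 7.87 and 7.63. The median strain lay at 5.67, about midway between these groups. The within-strain SD was 0.65 and the share between strains 0.501. Fdft1, squalene synthase, spanned 1.5, from 7.88 ± 0.26 in SM/J (SD, n = 2) to 9.38 ± 0.10 in BXD55/RwwJ (SD, n = 3), with little spread within strains (SD 0.22, share 0.620). Lss, lanosterol synthase, reached 6.06 ± 0.60 in BXD71/RwwJ (SD, n = 3).

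Of the 9 genes between lanosterol and cholesterol, Cyp51, the lanosterol demethylase, spanned 2.94. C58/J mice read 4.61 and 5.37 and BXD55/RwwJ mice 7.75, 7.95 and 8.11. Msmo1, Nsdhl and Dhcr7 were also lowest in C58/J, at 7.17 ± 0.17, 6.19 ± 0.05 and 6.08 ± 0.08 (SD, n = 2 each). Tm7sf2 and Ebp, a sterol reductase and a sterol isomerase, were highest in SWR/J at 10.08 ± 0.01 and 11.23 ± 0.01 (SD, n = 2 each). Ebp had the largest share between strains of these 9 genes (0.642) and Lbr, a nuclear membrane protein with a second role as a sterol reductase, the smallest (0.301).

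Stard4 carries cholesterol between membranes and is a known SREBP2 target. Its strain means ran from 6.65 ± 0.19 in C58/J (SD, n = 2) to 9.02 ± 0.46 in BXD71/RwwJ (SD, n = 3), with a share of 0.644. The lysosomal exporters Npc1 and Npc2 spanned 0.92 and 0.84. Npc2 was highest in CXB7/ByJ (11.72 ± 0.06, SD, n = 3), a strain in which Sc5d was lowest (10.31 ± 0.10, SD, n = 3).

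Each strain was then set against the mean of the other strains in a limma fit of all 220 mice. BXD55/RwwJ had 21 genes higher, beside 8.27% of all probe sets, and 1 lower, with 18.3% of probe sets called in either direction, and BXD71/RwwJ had 19 higher, beside 2.50%. In BXD55/RwwJ the changes ran from 0.32 ± 0.11 for Mvk to 2.01 ± 0.37 for Sqle (SE, adjusted p = 8.4e-06), and the gene that was lower was Npc2 (-0.40 ± 0.07, SE). In BXD71/RwwJ, Aacs (1.58 ± 0.28), Sqle (1.48 ± 0.37) and Fdps (1.31 ± 0.35) rose most. The Sqle values of the 3 BXD71/RwwJ mice were 6.44, 7.76 and 7.11. In further fits, the mice of 1 number were left out of every strain at once. The BXD71/RwwJ count was then 4 without the mice numbered 2 and 13 without those numbered 3, and the BXD55/RwwJ count was 16 to 19. Such fits lose mice of all strains, so a fall in a count cannot be traced to 1 mouse of the strain.

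BTBR T<+> tf/J had 14 genes higher (3.99% of all probe sets) and 1 lower (4.28%), and AXB2/PgnJ had 13 higher (9.18%) and 1 lower (11.4%). The lower gene was Npc2 in both. The Sqle values were 6.94, 6.38 and 7.30 in BTBR T<+> tf/J and 5.64, 7.34 and 7.38 in AXB2/PgnJ, whose first mouse lay near the median strain. With the mice of 1 number left out of every strain, the count in BTBR T<+> tf/J was 8 without number 1 and 0 without number 3. In AXB2/PgnJ it was 4 without number 2 and 4 without number 3. A further 4 strains tied at 7 genes higher, namely BXD5/TyJ (2.76% of probe sets higher), SWR/J (7.08%), BXD75/RwwJ (4.59%) and NOD/ShiLtJ (6.14%). Of these SWR/J also had 1 gene lower (8.70% of probe sets), which was Npc2, BXD75/RwwJ had 2 lower (3.96%), Insig2 and Npc2, and NOD/ShiLtJ had 2 lower (6.86%), Ggps1 and Npc2. The BXD5/TyJ count was 0 without the mice numbered 2 of every strain and 0 without those numbered 3. BXD75/RwwJ combined a higher Insig1 (1.17 ± 0.29, SE) with a lower Insig2 (-0.75 ± 0.15, SE), and its 2 mice read 9.66 and 9.56 for Insig1 and 10.49 and 10.04 for Insig2. This strain also had the highest mean of all strains for the clock genes Per2 (6.71), Per3 (8.2), Dbp (9.2) and Tef (9.96). The part of circadian phase in its Insig1 and Insig2 differences was not tested.

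At the other end, C58/J had 11 genes lower and none higher, beside 1.22% of all probe sets lower. Cyp51 (-1.92 ± 0.33, SE), Fdps (-1.82 ± 0.43), Sqle (-1.82 ± 0.45), Dhcr7 (-1.69 ± 0.28) and Idi1 (-1.61 ± 0.30) were furthest down. Scap was not among them and read 8.82 and 8.83 in the 2 mice, near its median strain mean of 8.81. SM/J had 8 genes lower (2.64%), led by Sqle (-1.92 ± 0.45, SE), and CXB7/ByJ had 8 lower (4.01%) and 1 higher (4.28%), the latter being Npc2 (0.38 ± 0.07, SE). CXB7/ByJ had 3 genes lower without the mice numbered 2 of every strain and 2 without those numbered 3. AXB15/PgnJ (5.48% of probe sets lower), AXB6/PgnJ (3.03%) and BXD40/TyJ (3.44%) had 6 genes lower each. AXB15/PgnJ also had 1 gene higher (7.20%), Lbr, and BXD40/TyJ had 2 higher (3.88%), Ggps1 and Npc2. Without the mice numbered 2 of every strain the counts were 2 in AXB6/PgnJ and 0 in BXD40/TyJ, and without those numbered 3 they were 0 in both. The AXB15/PgnJ count was 4 whichever number was left out.

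Markers of other liver cells differed in the same strains. In all 8 strains named for genes higher, the mean level of the 12 macrophage markers lay below the median strain (7.34 to 7.92 against 8.17), as did that of the 5 cholangiocyte markers (3.52 to 4.5 against 4.91) and of the 8 stellate cell and matrix markers (6.11 to 6.94 against 7.06), while that of the 7 hepatocyte markers lay above it (12.48 to 12.67 against 12.45). BXD55/RwwJ was the lowest of the 96 strains for macrophage (7.34) and cholangiocyte markers (3.52). SWR/J was lowest for stellate cell and matrix markers (6.11) and highest for the 7 endothelial markers (7.65 against a median of 6.95). In the 6 strains named for genes lower, the macrophage level ran from 7.89 in BXD40/TyJ to 8.57 in AXB6/PgnJ, and the hepatocyte level from 12.34 in AXB15/PgnJ to 12.46 in SM/J. SM/J and C58/J also lay below the median strain for cholangiocyte markers (3.95 and 4.23) and for stellate cell and matrix markers (6.88 and 6.97). The remaining strains of this group lay above both medians. Endothelial levels in the group ran from 6.67 in CXB7/ByJ to 7.62 in SM/J, close to SWR/J. The part of these cells in the counts was not tested, and fewer cells of a type and less RNA per cell cannot be told apart in whole liver.

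**Figure D2:**
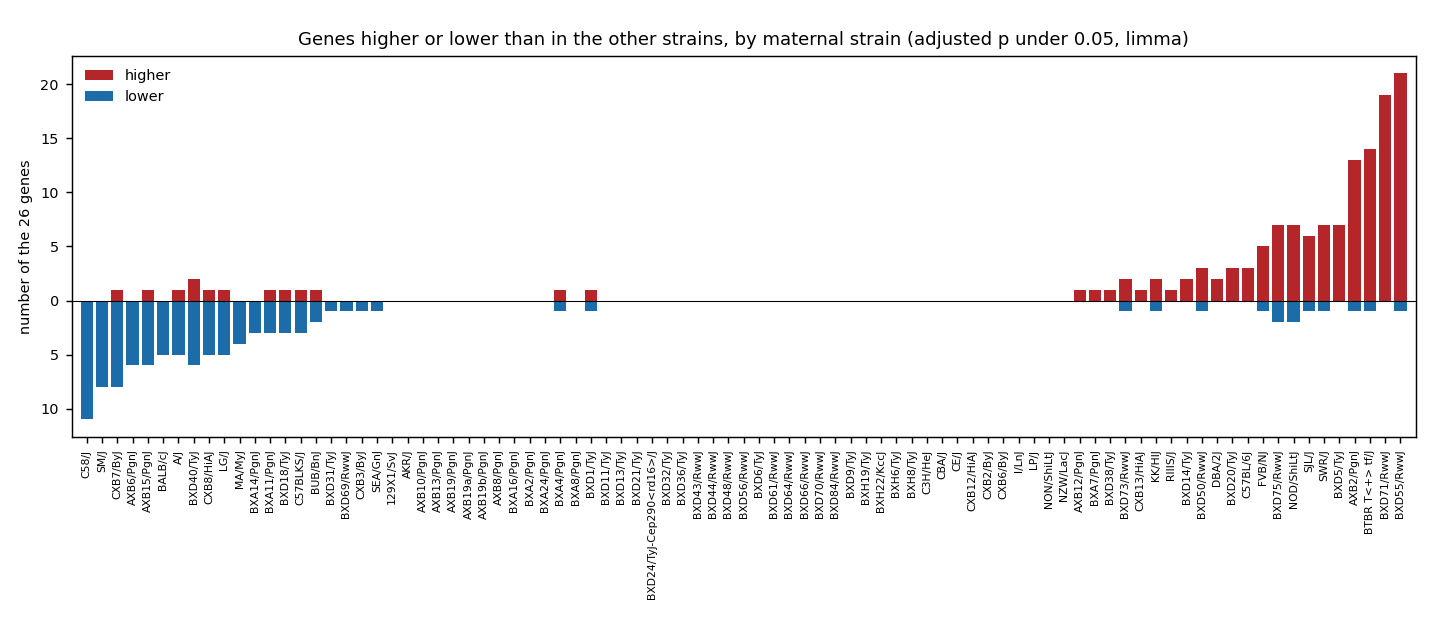
Number of the 26 genes that were higher (red, upward) or lower (blue, downward) than in the other strains at an adjusted p under 0.05 (limma), for the 87 maternal strains with 2 or more mice on the horizontal axis. The bars reach 21 genes higher in BXD55/RwwJ and 11 lower in C58/J, and of the 87 strains 43 have no gene called and 13 have 1 or 2.

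Within panels, the F-test between strains called 23 of the 26 genes in the 31 BXD strains tested (32.5% of all probe sets), 13 in the 18 AXB/BXA strains (21.7%), 23 in the 27 classical strains (35.4%), 1 in the 7 CXB strains (1.71%) and 1 in the 4 BXH strains (1.15%). The gene called in CXB was Lss (strain means from 4.21 in CXB7/ByJ to 5.24 in CXB13/HiAJ, adjusted p = 0.0125), and that in BXH was Idi1 (7.08 in BXH6/TyJ to 8.17 in BXH22/KccJ, adjusted p = 0.0212). In BXD, Scap had a share of 0.758 between strains and Sqle 0.332. In AXB/BXA, Insig2 had a share of 0.772 (adjusted p = 3.02e-06), with BXA11/PgnJ at the bottom, and Sqle 0.407. In the classical strains Stard4 had a share of 0.743 and Sqle 0.587. The count was 10 in BXD without the mice numbered 2, 6 in AXB/BXA without those numbered 2, 7 without those numbered 3, and in the classical strains 10 without those numbered 1 and 6 without those numbered 2.

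The panels differed in 6 of the 26 genes (limma F-test on 96 strain means, 6.77% of all probe sets). These were Ggps1 (adjusted p = 0.000184), Npc2 (0.0118), Lbr (0.0373), Sqle (0.0402), Stard4 (0.0411) and Msmo1 (0.0441). Mean Sqle was 5.94 ± 0.59 in BXD, 5.74 ± 0.61 in AXB/BXA, 5.47 ± 0.93 in the classical strains, 5.19 ± 0.26 in BXH and 4.93 ± 0.70 in CXB (SD over strains). The panels overlapped widely. Ggps1 was 0.26 ± 0.04 (SE) higher in AXB/BXA than in the classical strains (adjusted p = 8.95e-05) and 0.19 ± 0.04 higher in BXD (adjusted p = 0.00173). These 2 differences stood beside 4.65% and 1.01% of probe sets called, and Lbr was the other gene called in AXB/BXA (0.16 ± 0.04). With strains of 1 mouse left out, 3 genes were called.

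C57BL/6J, the strain of every father, ranked high among the 96 strains for many of these genes, as for Sc5d (2nd), Npc1 (3rd), Insig1 (4th), Lss (4th) and Sqle (5th). Its 2 mice were then set against those of A/J, BALB/cJ, C3H/HeJ and DBA/2J, the other founders of these panels, in 1 fit over all mice. The 4 comparisons share the same 2 C57BL/6J mice. A/J had 11 of the 26 genes lower (3.52% of all probe sets) and 1 higher (4.11%), and BALB/cJ had 13 lower (3.01%) and none higher (3.93%). C3H/HeJ had 2 lower (2.36%) and none higher (3.50%), and DBA/2J had none lower (1.02%) and none higher (0.842%) by limma, with 2 genes at an unadjusted p under 0.05. The median difference of the 26 genes was -0.85 in A/J, -1.01 in BALB/cJ, -0.55 in C3H/HeJ and -0.23 in DBA/2J, where the median of all genes lay between 0.002 and 0.011.

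Sqle read 6.48 and 7.44 in C57BL/6J. In A/J the mice read 3.67, 4.31 and 4.29, in BALB/cJ 4.51, 4.92 and 4.56, in C3H/HeJ 5.21 and 5.63, and in DBA/2J 7.39, 6.45 and 4.30. No A/J, BALB/cJ or C3H/HeJ mouse reached the lower C57BL/6J mouse, whereas the DBA/2J mice lay from below all C3H/HeJ mice to between both C57BL/6J mice. Relative to C57BL/6J the difference was -2.88 ± 0.58 (SE, adjusted p = 0.00021) in A/J, -2.30 ± 0.58 (0.0046) in BALB/cJ, -1.54 (0.149) in C3H/HeJ and -0.92 (0.629) in DBA/2J. The A/J difference of Sqle was the only one of its 12 calls to pass the threshold under every alternative run, and the BALB/cJ difference was -1.82 (adjusted p = 0.157) without C57BL/6J mouse 2.

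Insig1 values were 9.44 and 9.54 in C57BL/6J, 7.61, 8.44 and 8.20 in A/J, 7.36, 7.62 and 7.69 in BALB/cJ, 8.16 and 8.70 in C3H/HeJ and 9.32, 8.71 and 8.36 in DBA/2J. Every mouse of the other 4 strains lay below both C57BL/6J mice. The difference was -1.41 ± 0.37 in A/J (SE, adjusted p = 0.00647), a call lost without either C57BL/6J mouse (adjusted p = 0.0835 and 0.0733), and in BALB/cJ it was lower under every alternative run. Insig2 read 11.09 and 11.04 in C57BL/6J, 10.39, 10.86 and 10.86 in A/J, 11.22, 11.09 and 11.23 in BALB/cJ, 10.83 and 10.71 in C3H/HeJ, and 11.22, 10.86 and 10.25 in DBA/2J. It was called in no comparison, and its difference was -0.36 in A/J and 0.11 in BALB/cJ.

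Scap and Sc5d were lower in 3 of the 4 strains. Scap read 9.23 and 9.10 in C57BL/6J, 8.91, 8.58 and 8.73 in A/J, 8.73, 8.73 and 8.71 in BALB/cJ, 8.70 and 8.60 in C3H/HeJ, and 9.20, 8.79 and 8.87 in DBA/2J. The differences were -0.43, -0.44 and -0.52 in A/J, BALB/cJ and C3H/HeJ (adjusted p = 0.025, 0.0208 and 0.0141). Without C57BL/6J mouse 1 all 3 missed the threshold (adjusted p = 0.339, 0.302 and 0.239), and those of A/J and BALB/cJ missed it when mouse 2 was left out instead (0.067 and 0.0607). Sc5d, the enzyme that makes 7-dehydrocholesterol, read 11.58 and 11.38 in C57BL/6J, 10.72, 10.28 and 10.74 in A/J, 10.43, 10.51 and 10.65 in BALB/cJ, 10.50 and 10.56 in C3H/HeJ, and 11.24, 10.78 and 10.43 in DBA/2J. All 11 mice of the other strains lay below both C57BL/6J mice. The differences were -0.90 ± 0.20, -0.95 ± 0.20 and -0.95 ± 0.22 (SE) in A/J, BALB/cJ and C3H/HeJ, and the DBA/2J difference of -0.67 had an adjusted p of 0.0508.

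Among the other named genes, Idi1 read 8.08 and 8.84 in C57BL/6J, 6.84, 6.84 and 7.17 in A/J, and 6.76, 7.17 and 7.45 in BALB/cJ, with differences of -1.51 ± 0.38 and -1.33 ± 0.38 (SE). Cyp51 read 7.34 and 7.69 in C57BL/6J, 5.82, 5.98 and 6.36 in A/J, and 5.66, 6.45 and 6.49 in BALB/cJ, with differences of -1.46 ± 0.42 and -1.31 ± 0.42. Stard4 read 8.69 and 8.73 in C57BL/6J, 7.61, 7.46 and 7.79 in A/J, and 6.90, 7.34 and 7.41 in BALB/cJ, with differences of -1.09 ± 0.30 and -1.5 ± 0.30. None of these A/J and BALB/cJ values overlapped those of C57BL/6J. In C3H/HeJ, Idi1 read 7.53 and 8.15, Cyp51 6.72 and 7.21, and Stard4 7.67 and 7.91, with no call. Srebf2 read 5.71 and 5.76 in C57BL/6J, 5.34, 5.69 and 5.67 in A/J, 5.56, 5.49 and 5.63 in BALB/cJ, 5.60 and 5.69 in C3H/HeJ, and 5.40, 5.66 and 5.28 in DBA/2J. It lay below C57BL/6J in every one of these mice, with mean differences from -0.29 to -0.09, and passed in no comparison. Hmgcs1 was likewise called nowhere, with values of 3.81 and 3.94 in C57BL/6J and 3.17 to 3.94 in the other strains.

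**Figure D3:**
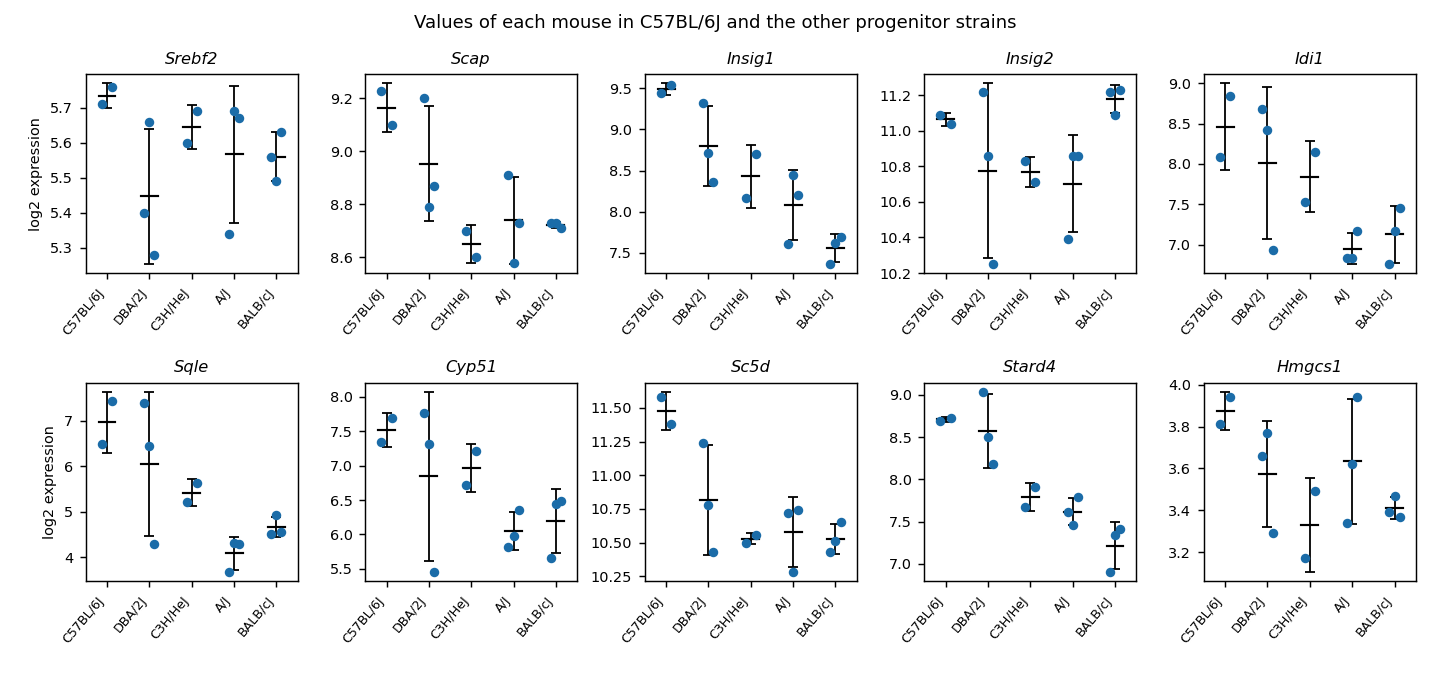
Log2 expression (vertical axis, a separate scale for each gene) of 10 genes in each mouse whose mother was C57BL/6J or 1 of the 4 other founders. Points are mice, horizontal lines the means and bars 1 SD. The A/J and BALB/cJ mice lie below both C57BL/6J mice for Insig1, Idi1, Sqle, Cyp51, Sc5d and Stard4, and the DBA/2J mice spread from 4.30 to 7.39 for Sqle.

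In DBA/2J 1 mouse set the mean of several genes. Mouse 3 read 4.30 for Sqle, 6.94 for Idi1, 5.45 for Cyp51 and 7.01 for Fdps, whereas the other mice read 7.39 and 6.45, 8.68 and 8.42, 7.77 and 7.32, and 9.49 and 8.74. Stard4 read 8.18 in mouse 3, against 9.04 and 8.5. Without mouse 3 the differences from C57BL/6J were -0.04 for Sqle, 0.09 for Idi1, 0.03 for Cyp51 and 0.06 for Stard4. For Fdps that difference is not given here, and the C57BL/6J mice read 9.13 and 9.71, beside 9.49 and 8.74 in the other DBA/2J mice.

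The remaining genes lower in A/J were Fdps (-1.65 ± 0.56, SE), Hsd17b7, a ketoreductase of the C4 demethylation complex (-1.01 ± 0.26), Ebp (-0.47 ± 0.14) and Npc1 (-0.40 ± 0.13), and Npc2 was the gene that was higher (0.34 ± 0.11). The remaining genes lower in BALB/cJ were Fdps (-1.80), Dhcr7 (-1.46), Lss (-1.33), Tm7sf2 (-1.20), Msmo1 (-1.12) and Ebp (-0.44). Whether A/J and BALB/cJ differed from each other was not tested. The count of 12 calls in A/J was 6 without A/J mouse 2, and it was 2 or 4 when C57BL/6J mouse 1 or 2 was dropped. The 13 in BALB/cJ became 7 without BALB/cJ mouse 1, and 6 or 3 when C57BL/6J mouse 1 or 2 was dropped. The 2 calls in C3H/HeJ became 1 without either C3H/HeJ mouse, 0 without C57BL/6J mouse 1, and 8 with array weights. The share of all probe sets called under these alternatives is not given here.

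**Figure D4:**
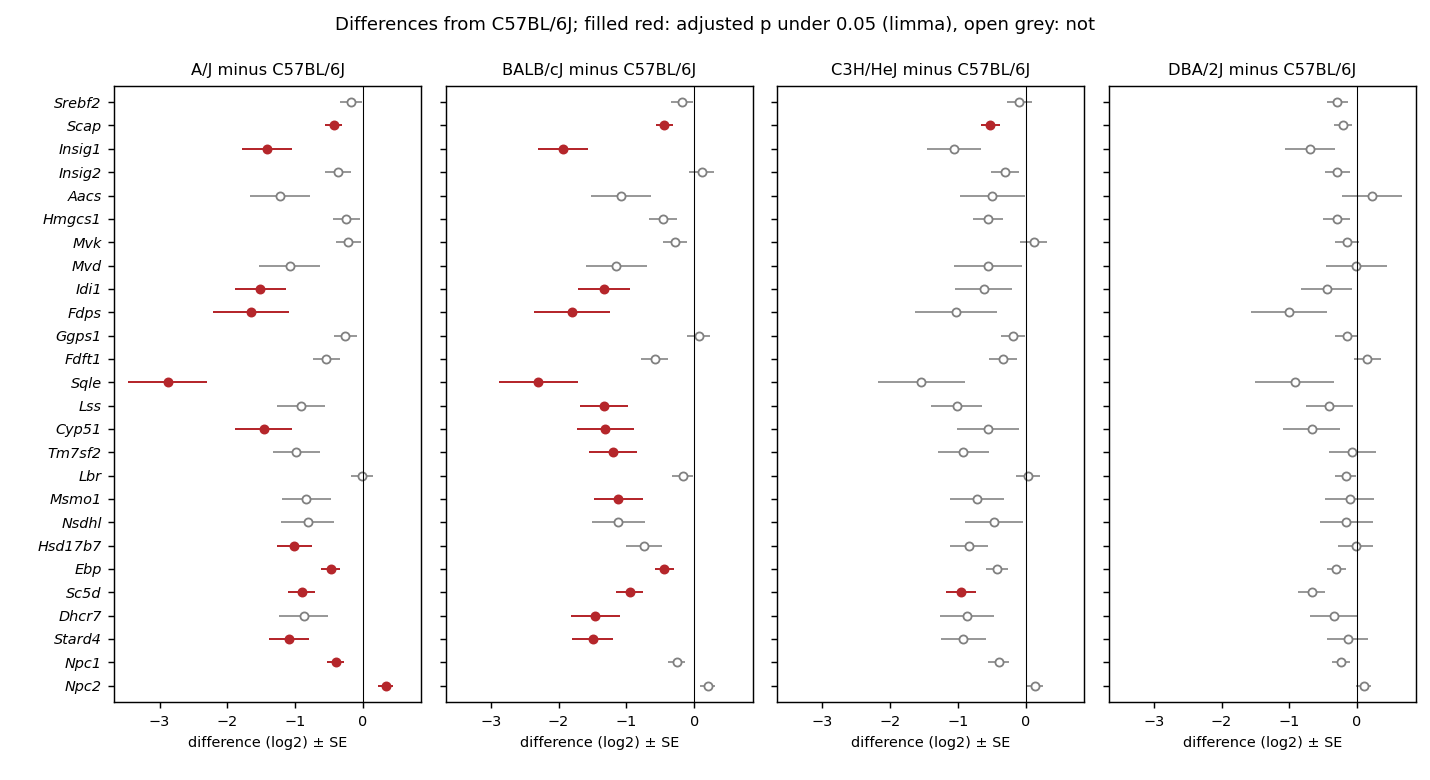
Difference in log2 expression from C57BL/6J (horizontal axis) for the 26 genes (vertical axis, ordered by role) in A/J, BALB/cJ, C3H/HeJ and DBA/2J. Bars are SE, and filled red points have an adjusted p under 0.05 (limma). Most points lie left of 0, and the furthest is Sqle in A/J at -2.88.

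Over the 96 strain means, most genes of the pathway moved with Sqle, in 25 relations computed. Pearson's r was 0.88 for Cyp51 (Spearman's rho 0.86), 0.87 for Idi1 (0.86), 0.85 for Msmo1 (0.86), 0.84 for Nsdhl (0.82), 0.83 for Fdps (0.82) and 0.82 for Mvd (0.84). In all 15 of the 25 genes had an r of 0.5 or more, and 70 of all 17096 other genes (0.409%) did so. The points share parental genomes, since strains of 1 panel descend from the same founders, so the strains are not independent and the values are a description. The median r of the 25 genes was 0.587 over all strains, 0.495 within BXD, 0.596 within AXB/BXA, 0.684 within the classical strains and 0.627 within CXB. It was 0.566 without BXD55/RwwJ and SM/J, the strains farthest from the median of Sqle. The 4 BXH strains were too few.

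A smaller number of genes stood outside this pattern. The r with Sqle was 0.24 for Scap, 0.16 for Lbr, 0.00 for Npc1, -0.01 for Ggps1, -0.02 for Insig2 and -0.30 for Npc2. With the probe set of largest SD for each gene, Ggps1 gave 0.23, and by rank or without some mice Ggps1 and Insig2 lay on either side of 0. Ggps1 has CCAAT in its window, as Idi1 and Nsdhl do. Insig2 has 3 matches in the window starting at base 121332540 and 0 in those starting at 121327629 and 121327975. Lbr and Npc2 hold 2 matches each. The genes with CCAAT in no window, Scap and Aacs, had an r of 0.24 and 0.46, beside 0.48 for Srebf2 and 0.49 for Hmgcs1, which hold it. A relation between CCAAT and r was not tested. Scap moved instead with Ebp (r = 0.75), Tm7sf2 (0.74), Hsd17b7 (0.72) and Npc1 (0.67). Npc2 ran opposite to Ebp (-0.70), Hsd17b7 (-0.67), Scap (-0.61) and Tm7sf2 (-0.61). The closest pairs of all were Fdps with Nsdhl (0.93), Cyp51 with Idi1 (0.92), Idi1 with Nsdhl (0.91) and Insig1 with Stard4 (0.90). Srebf2 itself had an r of 0.48 with Sqle and 0.57 with Insig1.

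**Figure D5:**
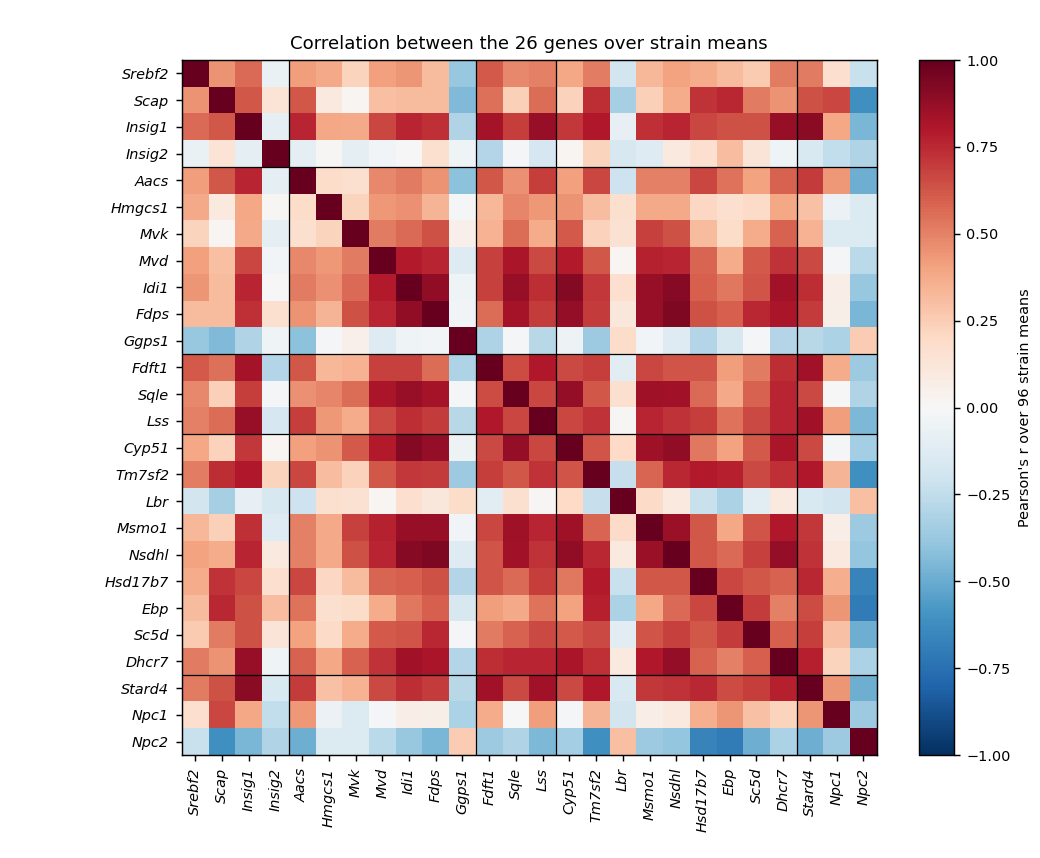
Pearson's r between each pair of the 26 genes over 96 strain means (colour, from -1 in blue to 1 in red), with the genes in the same order on both axes and black lines between roles. Most pairs of pathway enzymes are red, while Insig2, Lbr and Ggps1 are pale or light blue and Npc2 is blue against most genes.

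The relation was also computed among mice of 1 strain. After each of the 211 mice was expressed as its deviation from its strain mean, r with Sqle was 0.85 for Cyp51, 0.83 for Nsdhl, 0.82 for Idi1, Fdps and Msmo1, and 0.63 for Insig1, and 14 of the 25 genes reached 0.5. It was 0.24 for Srebf2, 0.21 for Insig2, 0.00 for Npc2, -0.04 for Npc1 and -0.17 for Ggps1. Mice of a strain share its genome, so this variation is not between maternal strains. The difference between the correlations over strains and within strains was not tested.

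The 10 genes outside the list named here followed the mean z-score of the 26 genes most closely over the strain means. They were Acss2 (r = 0.92), Fasn, Acly, Elovl6 and Pstpip2 (0.90 each), Rdh11 and Acacb (0.89 each), Acsl5 (0.88), and Pnpla5 and Gpam (0.86 each). Acss2 makes acetyl-CoA from acetate, Acly makes it from citrate, and Fasn, Elovl6 and Acacb belong to fatty acid synthesis. Fasn was 8.42 in SM/J, its lowest strain, and 11.66 in BXD55/RwwJ, its highest.

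Among other lists, the 10 measured genes of fatty acid synthesis all differed between strains (47.9% of probe sets), and their mean z-score had an r of 0.67 with Sqle and 0.90 with the mean z-score of the 26 genes. Of these 10, 9 were lower in A/J (median of the list -1.83) and 9 in BALB/cJ (-1.98), 2 in C3H/HeJ (-0.95) and none in DBA/2J (-0.62), none of them higher, with the background given above. The Acacb difference was -2.32 ± 0.50 in A/J and -2.43 ± 0.50 in BALB/cJ (SE). Of 9 other genes known as SREBP2 targets or helpers of sterol synthesis, 6 were lower in A/J, 6 in BALB/cJ and 3 in C3H/HeJ, with Acss2 at -1.94 ± 0.52 and -2.43 ± 0.52 in A/J and BALB/cJ and an r of the list of 0.76 with Sqle and 0.94 with the 26 genes. Of the 8 genes of SREBP cleavage and sterol sensing, none was lower and 2 were higher in A/J, among them the site-2 protease Mbtps2 (0.51 ± 0.15), and 2 in BALB/cJ, also with Mbtps2 (0.54 ± 0.15). Their r was 0.33 with Sqle and 0.24 with the 26 genes. The 12 genes of other mevalonate branches (protein prenylation, ubiquinone, dolichol) had an r of -0.03 with Sqle and -0.22 with the 26 genes, with 11 of 12 differing between strains and Zmpste24 higher in all 4 founder strains.

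The list for LXR, a receptor activated by sterols, held the receptor gene Nr1h3, the sterol exporters Abcg1, Abcg5 and Abcg8, and Mylip, Lpcat3 and Myo5a, which are not exporters. It had an r of -0.58 with Sqle and -0.37 with the 26 genes, and its members ranged from -0.44 (Abcg5) to 0.29 (Lpcat3) with Sqle. In A/J 3 of the 7 were higher, Abcg1 (1.14 ± 0.23, SE), Mylip (0.47 ± 0.15) and Myo5a (1.59 ± 0.26), and Lpcat3, which remodels phospholipids, was lower (-0.47 ± 0.13). In BALB/cJ and in C3H/HeJ none was higher and Lpcat3 was lower (-0.51 ± 0.13 and -0.56 ± 0.14), and in DBA/2J none was called. The median of the list was 0.08, -0.15, 0.02 and -0.14 in A/J, BALB/cJ, C3H/HeJ and DBA/2J. The 6 genes of bile acid synthesis had an r of 0.18 with Sqle and 0.51 with the 26 genes, and 3 were lower in A/J, 2 in BALB/cJ, 3 in C3H/HeJ and 1 in DBA/2J, with Cyp8b1, the sterol 12-alpha-hydroxylase, at -1.53 ± 0.35, -1.21 ± 0.35 and -1.24 ± 0.38 in the first 3. The 11 circadian genes, examined because feeding time is known to move sterol synthesis, had an r of 0.03 with Sqle and 0.26 with the 26 genes. None was called in any founder comparison, although all 11 differed between strains. The single AXB5/PgnJ mouse was highest for Arntl (7.14) and lowest for Per3 (3.32) and Tef (6.73), so opposite changes can cancel in the mean of this list. Taken singly, their r ran from -0.08 (Tef) to 0.08 (Per2 and Cry1) with Sqle. With the 26 genes it ran from -0.03 (Arntl) to 0.20 (Per2). The part of circadian phase was not tested.

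Markers of other liver cells also moved with the founder comparisons. In A/J 5 of 12 macrophage markers were higher, among them Cd14 (2.02 ± 0.42, SE) and Gpnmb (1.83 ± 0.41), and the mean level of the list was 8.61 against 7.97 in C57BL/6J. Marco (-1.70, adjusted p = 0.26) and Clec4f (-0.66, adjusted p = 0.493) of the same list had negative differences that did not pass. Of this list 1 gene was higher in BALB/cJ (Cd14), 2 were higher (Cd14 and Itgax) and 1 lower (Vsig4) in C3H/HeJ, and none was called in DBA/2J. Of the 8 stellate cell and matrix markers 1 was lower in each founder strain, 2 were higher in BALB/cJ and 3 in C3H/HeJ. Of the 7 endothelial markers 3 were lower in A/J (Cdh5, Oit3 and Clec4g), 6 in BALB/cJ, 2 in C3H/HeJ and 1 in DBA/2J, and the mean of that list was 6.50, 6.06, 6.28 and 6.83 against 7.04 in C57BL/6J. In C3H/HeJ 4 of 5 cholangiocyte markers were higher (6.23 against 4.52), and 1 was higher in BALB/cJ (5.69). Of the 7 hepatocyte markers none was called in A/J, 1 was lower in BALB/cJ and 1 in C3H/HeJ, and their mean was 12.30, 12.40 and 12.34 against 12.51.

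Over the 96 strains the r of the marker lists with the mean z-score of the 26 genes was -0.53 for macrophage, -0.40 for stellate cell and matrix, -0.33 for T cell, -0.30 for cholangiocyte, 0.06 for muscle, 0.13 for B cell, 0.15 for adipocyte, 0.24 for pancreatic acinar, 0.30 for endothelial and 0.35 for hepatocyte markers. With Sqle the values were closer to 0 for most lists, at -0.41 for macrophage, -0.33 for T cell, -0.12 for stellate cell and matrix, -0.03 for B cell, -0.02 for muscle, 0.03 for cholangiocyte, 0.04 for adipocyte, 0.08 for hepatocyte, 0.12 for endothelial and 0.15 for pancreatic acinar markers. The part of other cell types in the founder differences and in these correlations was not tested.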

How the data were processed

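The authors extracted total RNA from liver (left lobe, per the methods of the study), hybridised it to Affymetrix mouse arrays (HT MG-430 PM in the methods, HT_MG-430A in the labels) and deposited log2 values, 1 per probe set and mouse. GCOS and RMA are named in the submitters' notes on processing. RMA subtracts background, equalises the distributions of the arrays and summarises probes into a probe set. RMA compresses differences of dim probe sets. No version of either tool was given.

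The deposited values were used as they are. Of 45141 probe sets, 104 array controls were left out and 45037 tested. A probe set was given a gene when the platform table named 1 symbol (28898 probe sets, 17097 genes). Groups were the maternal strains of the labels. Replicate numbers follow accession order and name a mouse only. No 2 arrays were identical (r between arrays 0.9673 to 0.9966).

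Tests were made in R 4.3.3 with limma 3.58.1 (lmFit and eBayes), with Benjamini-Hochberg adjustment over all 45037 probe sets and a threshold of 0.05. Differences were taken for each of 4 founder strains minus C57BL/6J, and for each strain minus the mean of the others. They came from 1 fit over all mice with 1 mean per strain (residual df 124). F-tests between strains used the 211 mice of strains with 2 or more mice. F-tests between strains of a panel had a separate fit per panel on such mice. The F-test between panels was made on strain means. Strains with 1 mouse were not tested as strains, but they entered the panel F-test on strain means and the mean of the other strains. The share of variance is the between-strain component of a 1-way model. Correlations and promoter searches used Python 3.11.15, numpy 2.4.6 and pandas 2.3.3. The limma steps were tested on simulated data.

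The gene list, the other lists and the tests were chosen with earlier results of these data known. All listed genes with a probe set were to be described. Mouse values in founder strains were to be given for Sqle, Insig1, Insig2, Hmgcs1, Idi1, Stard4, Cyp51, Srebf2, Soat2 and any gene called in 3 or more of the 4 comparisons. The strains named are the 5 with most genes higher and the 5 with most lower, with ties, and the genes outside the list are the 10 most like its mean z-score and list genes with a large share of variance. Alternatives covered the choice of probe set, a filter on dim probe sets, the eBayes prior, another quantile normalization, array weights, the mice fitted and each mouse left out.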

Additional observations from a re-analysis of the deposited data

How the results depend on the processing

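No paired analysis was possible because the labels give no replicate numbers, and those used here follow accession order. The 26 genes called between strains became 21 to 25 with the mice of 1 number left out. The total of 243 calls of strains against the others became 75 to 143. The 23 calls in BXD became 10 to 21, the 13 in AXB/BXA 6 to 9 and the 23 in the classical strains 6 to 21, while CXB kept a count of 1. For BXH only the fit without the mice numbered 3 could be made. It removes no BXH mouse, so the count of 1 there could not change. The 243 calls, over 26 genes in 87 strains, stood beside 56 of all 45037 probe sets called in BXH19/TyJ, the fewest, and 9269 in AXB2/PgnJ, the most. The share of all probe sets called with mice left out is not given here. Strains left with 1 mouse drop out of these fits, so each loses strains as well as mice. In the 4 founder comparisons, leaving out 1 mouse gave 2 to 10 calls in A/J, 3 to 11 in BALB/cJ, 0 to 2 in C3H/HeJ and 0 to 1 in DBA/2J. Counts for single strains with the mice of 1 number left out were 16 to 19 higher in BXD55/RwwJ, 4 to 18 in BXD71/RwwJ, 0 to 14 in BTBR T<+> tf/J, 4 to 14 in AXB2/PgnJ, 0 to 6 in BXD5/TyJ, 6 in BXD75/RwwJ, 7 in SWR/J and 8 in NOD/ShiLtJ, and 11 lower in C58/J, 9 in SM/J, 2 to 6 in CXB7/ByJ, 4 in AXB15/PgnJ, 0 to 5 in AXB6/PgnJ and 0 to 8 in BXD40/TyJ. Strains of 2 mice gave a value only without the mice numbered 3, when they lose none of their own.

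With trend and robust settings of eBayes, 3 genes were called in CXB and 4 in BXH in place of 1 each. The panel test called 3 genes in place of 6 with strains of 1 mouse left out. C3H/HeJ had 8 calls with array weights, 4 with dim probe sets left out and 6 in a fit of the founder strains alone, in place of 2. DBA/2J had 1 call with dim probe sets left out and 1 with another quantile normalization, in place of 0, which was Sc5d each time. The share of all probe sets called under each of these settings is not given here, so these counts have no background beside them. Stard4 in DBA/2J was 0.08 with the probe set of largest SD, and with 1 mouse left out the DBA/2J differences ran from -0.83 to 0.09 for Idi1, -1.13 to 0.03 for Cyp51 and -0.37 to 0.06 for Stard4, the positive values being those without DBA/2J mouse 3. The r of Ggps1 with Sqle was 0.03 by rank, 0.23 with the probe set of largest SD and -0.08 to 0.05 with the mice of 1 number left out. The r of Insig2 was 0.02 by rank, 0.01 in strains with 2 or more mice, 0.07 with means centred within panels, and 0.01 without replicate 1 or 2. Over these settings 19 to 21 of the 25 genes had a positive r with a permutation p under 0.05, and 20 in the main setting. The share of all genes that meet this rule was not computed. Permutation treats the strains as independent, which they are not, so these counts are a description only. The cause of these changes was not tested. The range of 1 to 4 mice per strain, and values near the array median for Hmgcs1 and Mvd, limit what can be told apart.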
